A study of Mus musculus with 37 samples.

Results

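Lecticans, tenascins and the other genes of the perineuronal matrix were followed in cortical astrocytes after brain injury. The 9 genes Bcan, Ncan, Acan, Cspg5, Ptprz1, Tnc, Tnr, Hapln1 and Has2 were chosen by name, as the rows of the deposited tables whose Ensembl identifiers carry these symbols, out of 21975 genes. All mice were CD1 males according to the methods, while the sample labels write the genotype as WT CD31 Injured or WT CD31 Sham; their age was not given in the sources used here. The injured mice received a controlled cortical impact (CCI) on 1 side of the cortex, and the sham mice a craniectomy without impact. All groups, sham included, carried implanted EEG electrodes. Astrocytes were pulled from each hemisphere with magnetic beads against the surface antigen ACSA-2 at 4 months after surgery and their RNA was sequenced. Injured mice that developed post-traumatic epilepsy were called PTE+ and those that did not PTE−. The ipsilateral (injured) side has 4 PTE+, 10 PTE− and 5 sham libraries, and the contralateral side 4 PTE+, 9 PTE− and 5 sham libraries. Of 20 mice, 17 had a library from both hemispheres. Values are TPM, a measure of transcripts that is corrected for transcript length and sums to the same total in each library; the depth of each library cannot be read from them.

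Lecticans are chondroitin sulphate proteoglycans of the brain's extracellular matrix. They bind hyaluronan at one end, where link proteins hold the bond, and tenascins at the other, and the resulting mesh surrounds many neurons as perineuronal nets and fills the space between cells. Astrocytes, oligodendrocyte precursors and neurons each supply some of its parts, and chondroitin sulphate proteoglycans are known to accumulate in glial scars.

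All 9 are protein-coding genes, and their positions are given on build GRCm38 from the GENCODE vM21 annotation used here; the release behind the deposited tables was not given in the sources used here. Bcan (ENSMUSG00000004892) spans chr3:87987531-88000230 on the minus strand, Ncan (ENSMUSG00000002341) spans chr8:70093085-70120873 on the minus strand and Acan (ENSMUSG00000030607) spans chr7:79053483-79115099 on the plus strand. Cspg5 (ENSMUSG00000032482) spans chr9:110243783-110262576 on the plus strand, Hapln1 (ENSMUSG00000021613) spans chr13:89539796-89611652 on the plus strand and Has2 (ENSMUSG00000022367) spans chr15:56665627-56694539 on the minus strand. Ptprz1 (ENSMUSG00000068748) spans chr6:22875502-23052916 on the plus strand, Tnc (ENSMUSG00000028364) spans chr4:63959785-64047015 on the minus strand and Tnr (ENSMUSG00000015829) spans chr1:159523769-159931729 on the plus strand.

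The libraries were rich in astrocyte RNA. The 10 astrocyte markers (Slc1a3, Slc1a2, Gfap, Aqp4, Aldh1l1, Gja1, Atp1b2, S100b, Sox9 and Aldoc) were above 0 TPM in every library and summed to 14209 to 20577 TPM, Aldoc being the most abundant. RNA of other cells was present too. The 8 oligodendrocyte markers, led by Mbp, summed to 523 to 4476 TPM, and the 8 neuron markers, led by Snap25, to 35.4 to 603 TPM. The 8 oligodendrocyte precursor markers, led by Olig1, summed to 169 to 429 TPM. These are bulk samples, in which fewer cells of a type and less RNA per cell cannot be told apart.

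A pair of ipsilateral libraries stood apart. The library of PTE− mouse a9_14 had 10727 genes above 0 TPM, against at least 15599 in each of the others, and listed Acan, Tnc, Tnr and Has2 at 0, together with 6 of 8 oligodendrocyte precursor markers and 5 of 8 neuron markers. The library of sham mouse a9_11 had the highest astrocyte marker sum of all ipsilateral libraries (20577 TPM) and, among the sham libraries, the lowest oligodendrocyte marker sum (523 TPM, against 1778 to 4476 TPM in the other sham mice). Among the ipsilateral sham libraries it was the highest for Bcan, Ncan, Cspg5, Hapln1, Ptprz1, Tnc and Tnr. Both libraries were singled out with their values known.

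The levels of the 9 genes per transcript length differed widely. Averaged over the 37 libraries, Bcan (brevican) stood at 1970.2 TPM and Cspg5 (neuroglycan C) at 1770.2 TPM, at ranks 45 and 49 among all genes. Ptprz1 followed at 133 TPM, Hapln1 at 59.4 TPM and Ncan (neurocan) at 45.1 TPM. Tnc averaged 3.54 TPM and Tnr 1.23 TPM. Has2 (0.0859 TPM) and Acan (aggrecan, 0.0589 TPM) lay near 0 and were above 0 in 22 and 24 of 37 libraries. Some neighbours in this order were not separated by the spread between libraries. Bcan exceeded Cspg5 in 28 of 37 libraries and Hapln1 exceeded Ncan in 31 of 37, whereas Cspg5 exceeded Ptprz1, Ptprz1 exceeded Hapln1 and Ncan exceeded Tnc in 37 of 37.

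**Figure D1:**
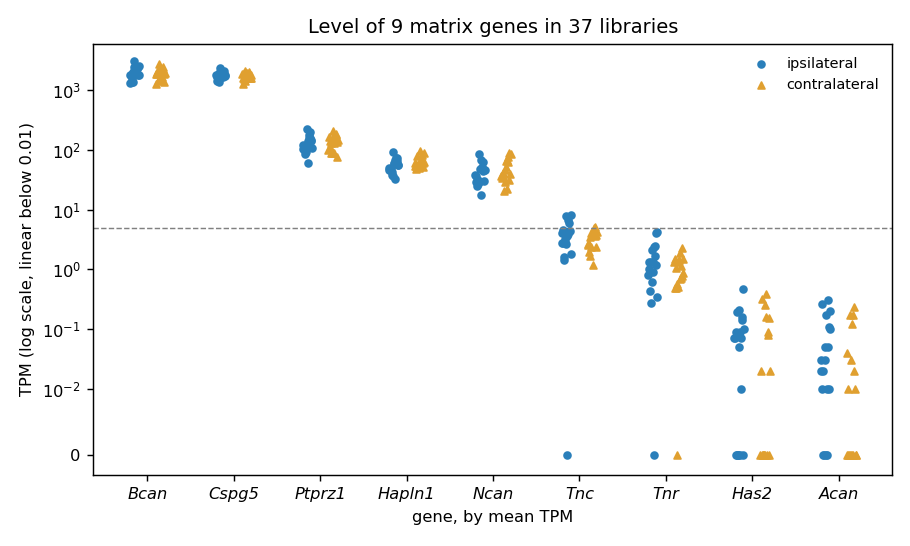
TPM of the 9 genes in each of the 37 libraries, 1 point per library, on a log axis that is linear below 0.01 TPM, with circles for ipsilateral and triangles for contralateral libraries and a dashed line at 5 TPM. Bcan and Cspg5 lie above Ptprz1, Hapln1 and Ncan in each library, and Has2 and Acan lie below 0.5 TPM throughout.

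Of the lecticans, Bcan was the abundant one. Ipsilateral Bcan was at 1365, 1551, 1827, 2044 and 3169.7 TPM in the 5 sham libraries and at 1791, 1837, 2274 and 2447 TPM in the 4 PTE+ libraries. The 10 PTE− libraries ran from 1352 to 2563 TPM with a median of 1889.9 TPM. The 3 groups overlapped throughout, and the sham group held the highest library (a9_11). Contralateral Bcan was at 1441, 1981, 2025, 2109 and 2243 TPM in sham, at 1387, 1918, 2323 and 2783 TPM in PTE+, and at 1277 to 2463 TPM (median 1889 TPM) in PTE−. The PTE+ group held the highest contralateral library, and its lowest lay below all sham libraries, so the groups overlapped here too.

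Ncan, a lectican made in greater amounts by the developing brain, varied more between mice. Ipsilateral Ncan was at 25, 26.5, 28.9, 46.3 and 87.2 TPM in sham and at 38.5, 44.8, 46.2 and 64.2 TPM in PTE+. The PTE− libraries ran from 18 to 68.8 TPM, with a median of 33.8 TPM. The 4 PTE+ libraries thus lay above 3 of 5 sham libraries and below the highest, a9_11; the lowest PTE− library was a9_14. Contralateral Ncan was at 20.9, 36.1, 52.4, 64.3 and 86.4 TPM in sham, at 31.5, 36.4, 45.6 and 88.2 TPM in PTE+ and at 22.1 to 77 TPM (median 39 TPM) in PTE−. Acan, the lectican typical of neuronal nets, did not exceed 0.31 TPM in any library and was listed at 0 in 13 of 37.

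Cspg5, a membrane-anchored chondroitin sulphate proteoglycan, was the steadiest of the abundant genes. Ipsilateral Cspg5 was at 1387, 1577, 1609, 1745 and 2388 TPM in sham and at 1791, 1845, 1853 and 2123 TPM in PTE+. The PTE− libraries ran from 1463 to 2095 TPM (median 1806 TPM). All 4 PTE+ libraries lay above 4 of 5 sham libraries and below the fifth, which was again a9_11. Contralateral Cspg5 was at 1421, 1597, 1636, 1926 and 1988 TPM in sham, at 1602, 1613, 1849 and 2125 TPM in PTE+ and at 1297 to 2074 TPM (median 1739 TPM) in PTE−. The standard deviation of log2(TPM + 1) within groups was 0.2 for Cspg5 and 0.57 for Ncan ipsilaterally, beside a median of 0.44 over the 10204 genes with a mean above 5 TPM. Without a9_14 these were 0.2, 0.52 and 0.33 (10216 genes). Contralaterally, the same measure was 0.2 for Cspg5 and 0.65 for Ncan, beside a median of 0.32 over 10263 genes.

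Hapln1, the link protein that fastens lecticans to hyaluronan, differed more between mice than between groups. Ipsilateral Hapln1 was at 37.1, 43.6, 47.4, 55.2 and 92.6 TPM in sham and at 46, 64.8, 68.8 and 72.6 TPM in PTE+. The PTE− libraries ran from 33 (a9_14) to 74.6 TPM, with a median of 53.2 TPM. Contralaterally, Hapln1 was at 52, 53.9, 62.2, 79.6 and 94.7 TPM in sham, at 51.2, 53.9, 58.7 and 60.9 TPM in PTE+ and at 48.4 to 88.1 TPM (median 60.6 TPM) in PTE−. Mouse a9_11 was the highest sham mouse in both hemispheres. Has2, a hyaluronan synthase, was listed at 0 in 15 of 37 libraries and did not exceed 0.46 TPM.

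Ptprz1 is a receptor-type phosphatase whose extracellular part, itself a chondroitin sulphate proteoglycan, binds tenascins and the ligand pleiotrophin. Ipsilateral Ptprz1 was at 85.5, 96, 108, 120.7 and 221 TPM in sham and at 103, 142, 157 and 199.95 TPM in PTE+. The PTE− libraries ran from 59.5 (a9_14) to 179 TPM, with a median of 118 TPM. The single sham library above 121 TPM, a9_11, exceeded all injured libraries. Contralaterally, Ptprz1 was at 89, 129.7, 145, 168 and 211 TPM in sham, at 77.3, 99.1, 141 and 186 TPM in PTE+ and at 88 to 182 TPM (median 136 TPM) in PTE−.

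Tenascins, glycoproteins that crosslink lecticans, were scarce. Ipsilateral Tnc was at 1.45, 1.59, 1.83, 2.83 and 7.72 TPM in sham and at 2.76, 4.35, 4.46 and 6.06 TPM in PTE+. The PTE− libraries were listed at 0 (a9_14) to 8.28 TPM, with a median of 3.78 TPM. Thus 4 of 5 sham libraries lay at or below 2.83 TPM, and the fifth, a9_11, near the top. Contralaterally, Tnc was at 1.65, 3.43, 3.82, 3.93 and 4.22 TPM in sham, at 2.39, 2.67, 4.13 and 5.07 TPM in PTE+ and at 1.19 to 4.84 TPM (median 2.71 TPM) in PTE−. Tnr, the tenascin of nets and nodes, was at 0.27, 0.34, 0.61, 0.89 and 2.14 TPM in ipsilateral sham libraries and at 0.8, 1.17, 2.44 and 4 TPM in PTE+. Its PTE− libraries ran from 0 to 4.21 TPM ipsilaterally, and no contralateral library exceeded 2.3 TPM.

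**Figure D2:**
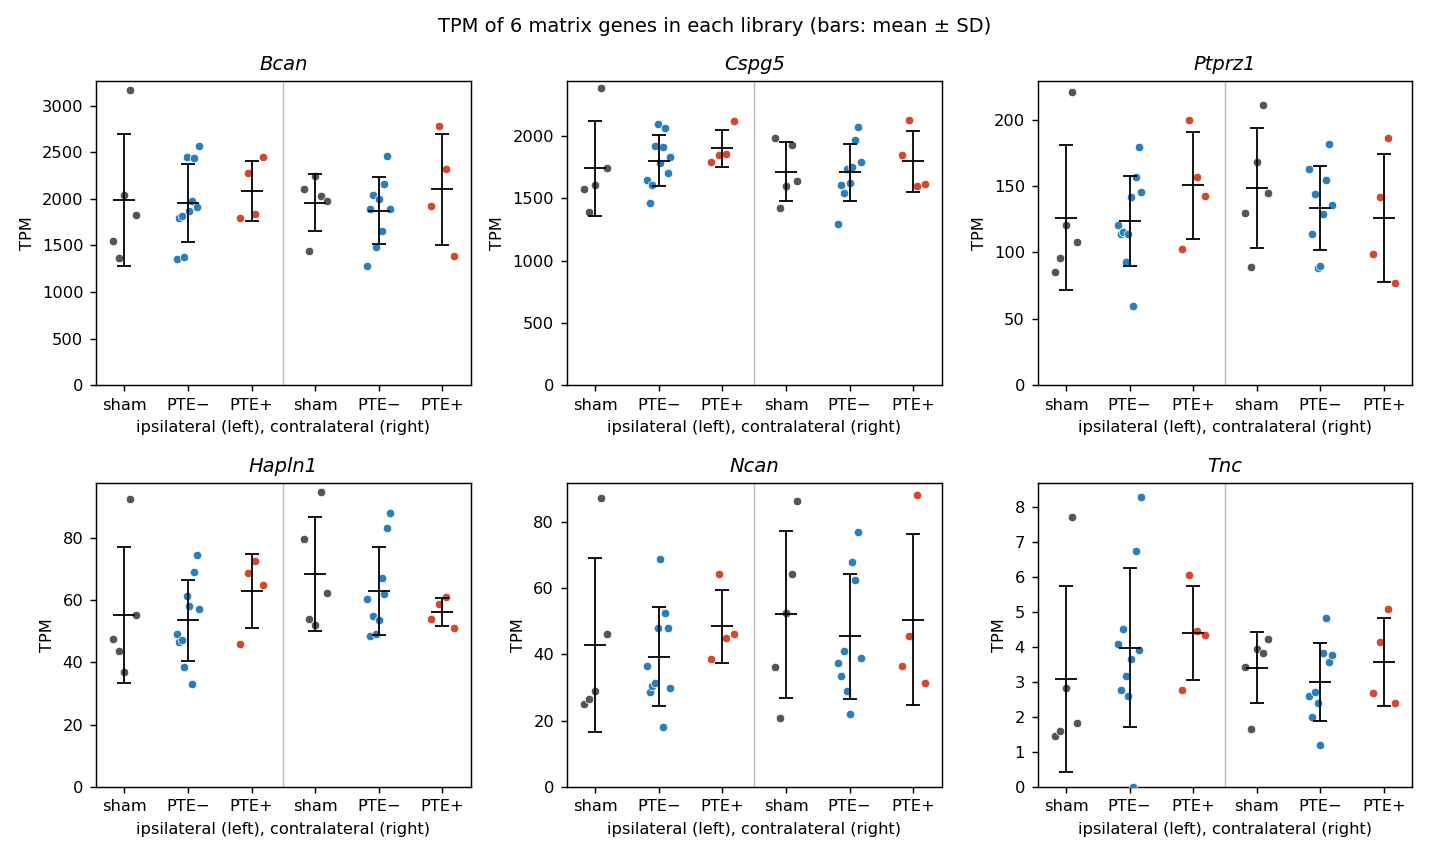
TPM of Bcan, Cspg5, Ptprz1, Hapln1, Ncan and Tnc by hemisphere and group, each point being 1 library and the bars the mean and SD. The groups overlap for each of the 6 genes in both hemispheres, and 1 ipsilateral sham library, of mouse a9_11, lies above the other sham libraries for Bcan (3169.7 TPM), Ptprz1 (221 TPM) and Tnc (7.72 TPM).

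The first question was whether injury changed these genes. Differences were tested with limma on log2(TPM + 1), keeping each gene whose mean exceeded 5 TPM in 1 or more of the compared groups. A gene was called where its unadjusted p was under 0.05 and its fold was 1.2 or more. Bcan, Ncan, Cspg5, Ptprz1 and Hapln1 passed that filter in each comparison; Acan, Tnc, Tnr and Has2 did not and were compared by exact permutation. With the filter removed, limma called 0 of these 4 in each comparison within a hemisphere, where 0.865% to 3.4% of all tested genes were called. Has2 was the 1 of the 4 with an unadjusted limma p under 0.05 (p = 0.0177 in ipsilateral PTE+ against PTE− mice, with a fold below the threshold). A fold change is on the log2(TPM + 1) scale, on which the change of a gene at low TPM comes out smaller than its ratio of TPM. In the ipsilateral cortex 0 of 5 genes were called between CCI-injured and sham mice, where 1.62% of 10434 tested genes were called. The log2 fold changes ran from 0.038 (Bcan, SE 0.17) to 0.091 (Cspg5, SE 0.1), with 95% intervals of −0.31 to 0.39 for Bcan and −0.13 to 0.31 for Cspg5. The median was 0.064 for the 5 genes and −0.013 for all tested. In the contralateral cortex 0 of 5 genes were called, beside 4.05% of 10556. Log2 fold changes there ran from −0.17 (Ptprz1, SE 0.2) to 0.019 (Cspg5, SE 0.11), with a median of −0.1 beside −0.071 for all tested genes. In limma no gene of the whole table reached an adjusted p under 0.05 in either hemisphere, and at an unadjusted p under 0.05 alone there were 195 ipsilaterally and 472 contralaterally.

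Injury without epilepsy gave the same counts. Between PTE− and sham mice 0 of 5 genes were called ipsilaterally, where 1.54% of 10485 genes were called, and 0 of 5 contralaterally, where 3.76% of 10564 were. The 5 log2 fold changes lay between −0.043 (Ncan) and 0.068 (Cspg5) ipsilaterally and between −0.14 (Ncan) and −0.004 (Cspg5) contralaterally. The SE was largest for Ncan, at 0.31 and 0.32. The interval for Ncan thus ran from −0.7 to 0.62 in the ipsilateral cortex, so that a change of a fold of 1.2 in either direction was within it.

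The second question was whether astrocytes of mice with epilepsy differed from those of injured mice without it. Among ipsilateral libraries 0 of 5 genes were called between PTE+ and PTE− mice, where 0.573% of 10473 genes were called. The 5 log2 fold changes were all positive, from 0.082 (Cspg5, SE 0.098) to 0.36 (Ncan, SE 0.28), and the median over all tested genes was itself 0.12 in this comparison, against 0.25 for the 5. The limma adjusted p was 0.977 for each of the 5. Among contralateral libraries 0 of 5 were called, where 2.79% of 10423 were, and the log2 fold changes ran from −0.14 (Hapln1, SE 0.16) to 0.15 (Bcan, SE 0.19). In limma no gene of the whole table reached an adjusted p under 0.05 in either, and 63 and 303 genes had an unadjusted p under 0.05. Without the ipsilateral library of a9_14 the count of called genes was 197 in place of 60, with 0 of the 5 among them.

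Has2 was the single gene of the 9 with an exact permutation p under 0.05 in any comparison with all libraries. Its ipsilateral values were 0.07, 0.14, 0.16 and 0.46 TPM in PTE+ and 0 to 0.21 TPM in PTE−, with a median of 0.04 TPM and 4 of 10 libraries at 0. The means were 0.21 and 0.054 TPM and the two-sided exact permutation p was 0.018 over 1001 splits, or 0.0266 without a9_14. This was 1 of 72 such tests (9 genes in 8 comparisons that share groups), the groups overlapped, and the fold change of 1.14 on the log2(TPM + 1) scale was below the threshold. In the contralateral cortex Has2 was at 0 in 3 of 4 PTE+ libraries, with an exact permutation p of 0.206.

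The third comparison set PTE+ against sham mice. With all 5 sham libraries 0 of 5 genes were called ipsilaterally, where 1.56% of 10447 genes were called. The log2 fold changes were positive for all 5, from 0.12 (Bcan, SE 0.23; −0.0011 without sham mouse a8_16) to 0.32 (Ncan, SE 0.33), with a median of 0.24 beside 0.085 over all tested genes. Exact permutation p-values for the 9 genes ranged upward from 0.119 (Has2), and the 126 splits allow none below 0.00794. Contralaterally 0 of 5 genes were called, where 1.97% of 10640 were, with log2 fold changes from −0.26 (Ptprz1, SE 0.28) to 0.072 (Bcan, SE 0.21). No gene of the whole table reached a limma adjusted p under 0.05 in either hemisphere, while 163 and 211 genes had an unadjusted p under 0.05. Comparisons with sham share the sham libraries and are not independent.

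This comparison turned on sham mouse a9_11. Without its ipsilateral library 4 of 5 genes were called higher in PTE+ than in sham, but the share called among all tested genes also went up, to 9.95% of 10434, with a median log2 fold change of 0.15 over all tested. The log2 fold changes were 0.61 for Ncan (SE 0.22, unadjusted p = 0.0145), 0.52 for Ptprz1 (SE 0.19, p = 0.0193), 0.45 for Hapln1 (SE 0.18, p = 0.028) and 0.27 for Cspg5 (SE 0.12, p = 0.0492), all from limma. Bcan, at 0.3 (SE 0.16, limma p = 0.0849), was not called. The limma adjusted p was 0.499 or lower for the 5 and ran up to 1 for each of them over the 14 alternatives, and 0 genes of the table were below 0.05. By exact permutation over 70 splits Cspg5 had p = 0.0286, the smallest that a two-sided test of 4 against 4 libraries can give, Tnc and Tnr 0.0571, Ptprz1 and Hapln1 0.0857, Ncan 0.114 and Bcan 0.143. Cspg5 was the gene whose groups no longer overlapped, and the share of all genes that did the same was not computed. Leaving out a9_11 also gave Cspg5 an exact permutation p of 0.0239 between CCI-injured and sham mice, at a fold of 1.16 and thus below the threshold. Mouse a9_11 was singled out with its values known. It held the highest ipsilateral sham value of Bcan, Ncan, Cspg5, Hapln1, Ptprz1, Tnc and Tnr. Leaving it out thus raises each of their differences from sham, so the calls and p-values without it support nothing. The cell type markers Slc1a3, Gja1, Sox9, Mbp, Mog, Mag, Mobp, Rbfox3, Snap25 and Lum were each called in 1 of the 14 alternatives. With all libraries they were not called. For the 4 oligodendrocyte markers among them that alternative was the one without a9_11. The a9_11 library is the one with the highest astrocyte and lowest oligodendrocyte marker sums among the sham libraries, and the part of its cell content in these values was not tested.

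**Figure D3:**
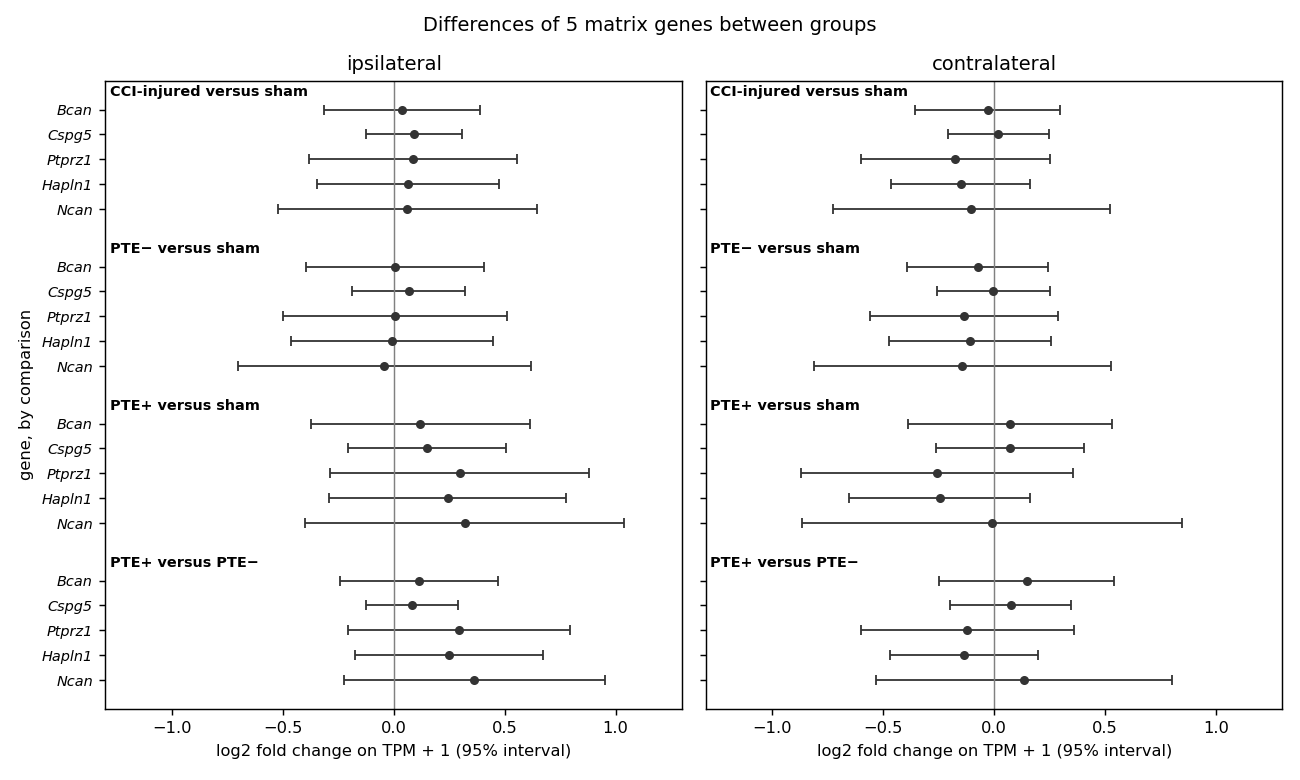
Log2 fold changes of Bcan, Ncan, Cspg5, Ptprz1 and Hapln1 from limma, with 95% confidence intervals, for 4 comparisons in each hemisphere. Points are estimates with all libraries and bars the intervals; every interval includes 0.

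The hemispheres of the same animals were compared next. In CCI-injured mice 0 of 5 genes were called between the ipsilateral and contralateral cortex, where 2.62% of 10706 genes were called, and in sham mice 0 of 5, where 1.32% were. The log2 fold changes in injured mice ran from −0.13 (Ncan, SE 0.22) to 0.082 (Cspg5, SE 0.077). In limma 4 genes of the whole table, Gfap among them and none of the 9, had an adjusted p under 0.05 in injured mice and 0 in sham mice, with 365 and 147 at an unadjusted p under 0.05. Hapln1 was lower on the ipsilateral side in 5 of 5 sham mice, in 7 of 9 PTE− mice and in 1 of 3 PTE+ mice. Its log2 fold change in sham mice was −0.34, with SE 0.22 and limma p = 0.12 without pairing. With the mouse as a block Hapln1 was called in sham mice (SE 0.13, limma p = 0.014, adjusted p = 0.428, with up to 1 over the 14 alternatives), the only one of the 5, where 9.04% of 10695 genes were called. Of these 967 genes 5.69% were higher on the ipsilateral side, and the median log2 fold change over all tested genes was −0.091. That split depends on scaling: without the block 7.8% of 141 called genes were higher, or 41.2% of 136 with quantile normalization, which moved the median over all tested genes from −0.09 to 0.001. The endothelial marker sums of sham mice a8_15, a8_16, a9_9, a9_10 and a9_11 were 323, 236, 152, 472 and 124 TPM ipsilaterally and 294, 444, 165, 447 and 235 TPM contralaterally. Those of the meningeal and fibroblast markers, led by Dcn, were 61.5, 136, 78.9, 21.9 and 74.6 TPM and 61.8, 107, 63.8, 216 and 109.7 TPM in the same order. None of these markers was at 0 in a sham library, and their part in the Hapln1 values was not tested. Sham mice had a craniectomy on that side. Tnc, below the filter, was not tested in limma. As a description, it was higher ipsilaterally in 8 of 9 PTE− and 3 of 3 PTE+ mice and in 1 of 5 sham mice. The share of all genes with such counts per mouse was not computed, for Tnc or for Hapln1.

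Whether the injury difference itself differed between hemispheres was tested as an interaction. For CCI-injured against sham mice 0 of 5 genes were called, where 1.37% of 10706 genes were, and the 5 differences ran from 0.068 (Bcan, SE 0.24) to 0.26 (Ptprz1, SE 0.32). For PTE+ against PTE− mice 0 of 5 were called, where 0.0843% of 10681 were. Ptprz1 (0.42, SE 0.34) and Hapln1 (0.39, SE 0.26) had the largest differences in the latter, with intervals of −0.29 to 1.12 and −0.14 to 0.92. The limma adjusted p was 1 for all 5 genes in both, and no gene of the table was under 0.05; 149 and 9 genes had an unadjusted p under 0.05. These fits do not pair the hemispheres of a mouse. With the mouse as a block 0 of the 5 were called in either, where 6.5% of 10695 and 3.09% of 10683 genes were called.

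The mice carry names that begin with a8 or a9, and the meaning of this prefix was not given in the sources used here. Values by prefix were drawn up after the data were seen and get no test. Ipsilateral Bcan was at 1352 to 1811 TPM in the 7 libraries of a8 mice and at 1827 to 3169.7 TPM in the 12 libraries of a9 mice, without overlap. Each of the other genes overlapped between prefixes on this side. The 9 genes together took 0.292% to 0.377% of all TPM in the a8 libraries and 0.378% to 0.597% in the a9 libraries. Bcan and Cspg5, with means of 1970.2 and 1770.2 TPM, make up most of this sum, and sums of other gene sets were not compared. Ipsilaterally 0.862% of 10204 genes separated the prefixes without overlap, as Bcan did, and 83 of these 88 were higher in a9 mice. In the contralateral cortex the values of all 9 genes overlapped between prefixes. Both prefixes hold all 3 groups, but a8 holds 1 PTE+ and 2 sham libraries ipsilaterally. Within a9 mice the ipsilateral PTE+ minus sham difference on the log2 scale was −0.071 for Bcan, 0.058 for Ncan, 0.038 for Cspg5, 0.21 for Ptprz1 and 0.25 for Hapln1. Within a8 mice it was 0.3, 0.56, 0.28, 0.18 and 0.016 in the same order, from 1 PTE+ library. Over the 5 genes, the 4 contrasts and both hemispheres, 25 of 40 differences had opposite signs in the prefixes. The contralateral CCI-injured minus sham difference was 0.41 in a8 and −0.4 in a9 mice for Ncan and 0.18 and −0.4 for Ptprz1, and contralateral PTE+ minus sham was 0.41 and −0.21 for Bcan. With the prefix as a covariate no gene of the 5 was called in any comparison within a hemisphere, where 0.659% to 4.21% of all tested genes were.

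**Figure D4:**
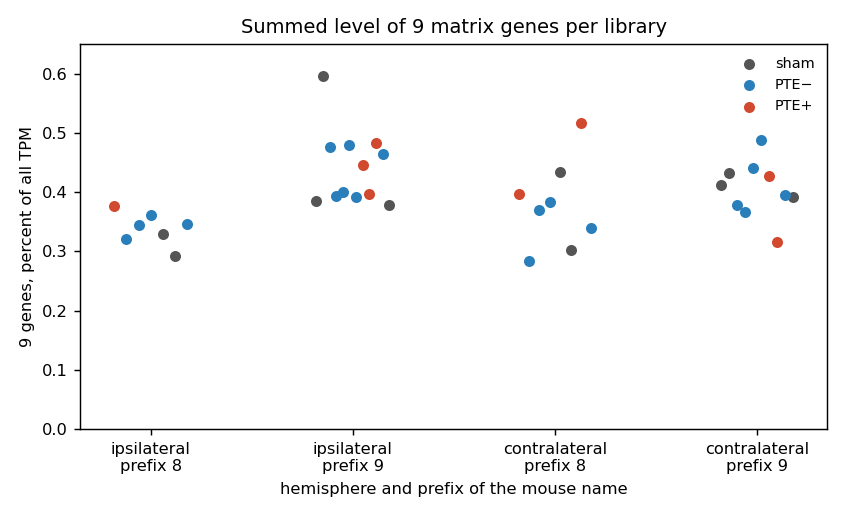
Share of all TPM taken by the 9 genes in each library, as a percent, by hemisphere and by the prefix (8 or 9) of the mouse name, coloured by group. Ipsilateral libraries of prefix 8 lie at 0.292% to 0.377% and those of prefix 9 at 0.378% to 0.597%, while contralateral libraries overlap. Bcan and Cspg5 make up most of the share, and of the 9 genes Bcan alone separates the prefixes ipsilaterally.

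The genes were also compared with each other from library to library. All 20 correlations among the 5 genes were positive, while 56.1% of all pairs of 10065 genes were positive ipsilaterally and 60.5% contralaterally. Of the member pairs, 9 of 10 ipsilaterally (r of 0.53 or more) and 6 of 10 contralaterally (0.5 or more) had an adjusted permutation p under 0.05, and 20.3% and 12% of all gene pairs reached the same r. Without a9_14 10 of 10 ipsilateral pairs and 14.8% of all gene pairs did. Over the 19 ipsilateral libraries, Ptprz1 and Hapln1 had Pearson's r of 0.88 and Spearman's rho of 0.837, each with a permutation p of 1e-05, the smallest that the 100000 resamples can give, and an adjusted p of 0.0002. Over the 18 contralateral libraries their r was 0.598 (permutation p = 0.00877, adjusted 0.0196) and rho 0.598 (permutation p = 0.0101, adjusted 0.0225). Leaving out the 2 libraries farthest from the median of Ptprz1 gave r of 0.799 ipsilaterally and 0.516 contralaterally, and leaving out a9_14 gave 0.851 ipsilaterally. Ncan and Ptprz1 had r of 0.832 ipsilaterally (permutation p = 4e-05, adjusted 0.000267; rho 0.713, permutation p = 0.0008, adjusted 0.004) and 0.788 contralaterally (permutation p = 0.00023, adjusted 0.00115; rho 0.814, permutation p = 0.00011, adjusted 0.000733). Without the 2 farthest libraries these were 0.696 and 0.802. Ncan and Hapln1 had r of 0.853 ipsilaterally (permutation p = 4e-05, adjusted 0.000267; rho 0.799, permutation p = 5e-05, adjusted 0.0005; r of 0.743 without 2 libraries). Contralaterally their r was 0.456 (permutation p = 0.0578, adjusted 0.0722; rho 0.633, permutation p = 0.00604, adjusted 0.0173; r of 0.557 without 2). Within the prefixes of the mouse names, the ipsilateral r in a8 (7 libraries) and a9 mice (12 libraries) was 0.525 and 0.863 for Ptprz1 and Hapln1, 0.533 and 0.802 for Ncan and Ptprz1, and 0.115 and 0.845 for Ncan and Hapln1. The last relation was thus not seen in a8 mice. Contralaterally, in 8 and 10 libraries, r was 0.478 and 0.572, 0.766 and 0.785, and 0.296 and 0.335 in the same order. Bcan and Cspg5, the abundant pair, had r of 0.726 ipsilaterally (permutation p = 0.00044, adjusted 0.00176; rho 0.658, permutation p = 0.00302, adjusted 0.0121; r of 0.629 without 2 libraries) and 0.669 contralaterally (permutation p = 0.00241, adjusted 0.00803; rho 0.49, permutation p = 0.0407, adjusted 0.0509; r of 0.544 without 2). In a8 and a9 mice it was −0.046 and 0.792 ipsilaterally and 0.816 and 0.344 contralaterally. In the a8 mice 3 of 10 ipsilateral pairs and 1 of 10 contralateral pairs were negative, the others being Cspg5 with Hapln1 (−0.429 ipsilaterally) and Cspg5 with Ptprz1 (−0.124 ipsilaterally and −0.075 contralaterally), and in the a9 mice none was. These are correlations of log2(TPM + 1), all groups pooled, with p-values adjusted over the 20.

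The libraries also differ in cell content. Ipsilaterally, the summed astrocyte markers had r of 0.779 with Ptprz1 (permutation p = 4e-05, adjusted 0.0032; rho 0.781, permutation p = 0.00014, adjusted 0.0112), 0.739 with Hapln1 (permutation p = 0.00029, adjusted 0.00773; rho 0.695, permutation p = 0.00122, adjusted 0.0325) and 0.65 with Ncan (permutation p = 0.00244, adjusted 0.0357; rho 0.609, permutation p = 0.00633, adjusted 0.0563). Leaving out the 2 libraries farthest from the median sum gave r of 0.658, 0.6 and 0.45. Within a8 mice these 3 were 0.069, 0.066 and −0.411 and within a9 mice 0.778, 0.69 and 0.623, so the relations were not seen in a8 mice. Contralaterally r was 0.109, 0.351 and 0.119 (permutation p = 0.664, 0.152 and 0.637) and rho 0.077, 0.36 and 0.15 (permutation p = 0.762, 0.144 and 0.549). For Bcan r with the ipsilateral astrocyte sum was 0.761 (permutation p = 0.00019, adjusted 0.0076; rho 0.742, permutation p = 0.00036, adjusted 0.0144; 0.813 without 2, and 0.712 in a8 and 0.607 in a9 mice). The oligodendrocyte sum had r of −0.655 with ipsilateral Cspg5 (permutation p = 0.00235, adjusted 0.0357; rho −0.581, permutation p = 0.0103, adjusted 0.0684, and r of −0.522 without 2, −0.343 in a8 and −0.663 in a9 mice) and −0.594 with ipsilateral Bcan (permutation p = 0.00748, adjusted 0.072; rho −0.584, permutation p = 0.0101, adjusted 0.0684, and r of −0.587 without 2, −0.169 in a8 and −0.574 in a9 mice). With the endothelial sum Hapln1 had r of −0.555 ipsilaterally (permutation p = 0.014, adjusted 0.0798; rho −0.533, permutation p = 0.0204, adjusted 0.116, and r of −0.383 without 2, −0.158 in a8 and −0.513 in a9 mice) and −0.601 contralaterally (permutation p = 0.00786, adjusted 0.072; rho −0.631, permutation p = 0.00608, adjusted 0.0563, and r of −0.634 without 2, −0.608 in a8 and −0.51 in a9 mice). With the oligodendrocyte sum ipsilateral Hapln1 had r of −0.529 (permutation p = 0.0195, adjusted 0.0975; rho −0.523, permutation p = 0.0239, adjusted 0.116; −0.257 without 2, and −0.341 in a8 and −0.428 in a9 mice). Contralaterally r with the oligodendrocyte sum was 0.041 for Cspg5, 0.066 for Bcan and −0.294 for Hapln1 (permutation p = 0.874, 0.797 and 0.238). Ipsilateral Bcan also had r of −0.578 with the neuron sum and 0.572 with the oligodendrocyte precursor sum (adjusted permutation p = 0.072 for each). The neuron sum had r of −0.437 with contralateral Bcan (adjusted permutation p = 0.213). Contralaterally the oligodendrocyte precursor sum had r of 0.667 with Bcan (permutation p = 0.00268, adjusted 0.0357; rho 0.643, permutation p = 0.00495, adjusted 0.0563, and r of 0.459 without 2, 0.693 in a8 and 0.608 in a9 mice). With the number of genes above 0 TPM, ipsilateral Ncan had r of 0.57 (0.686 in a8 and 0.813 in a9 mice). Ptprz1 had 0.572 (0.606 and 0.81), Hapln1 0.483 (0.475 and 0.741), Bcan −0.103 and Cspg5 −0.065. Contralaterally r was 0.499, 0.559, 0.28, −0.254 and −0.217 in the same order. None of these had an adjusted permutation p under 0.05. The p-values are adjusted over 80 correlations of the 5 genes with marker sums and the number of genes above 0 TPM, of which 6 had an adjusted p under 0.05 for r and 3 for rho, all among those given here. The part of cell content in the correlations between the genes was not tested.

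**Figure D5:**
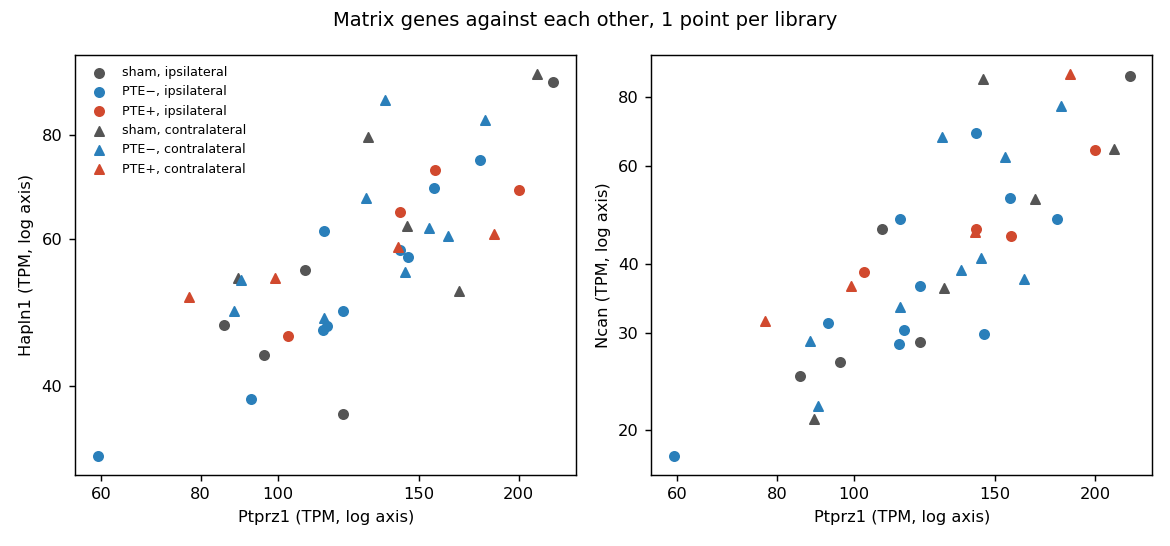
Hapln1 against Ptprz1 TPM and Ncan against Ptprz1 TPM, all on log axes, 1 point per library, coloured by group, with circles for ipsilateral and triangles for contralateral libraries. Libraries higher in Ptprz1 were higher in both genes (ipsilateral r of 0.88 and 0.832), and the groups are intermixed.

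The promoters of Ncan, Ptprz1 and Hapln1 are shown because these 3 had the highest ipsilateral correlations with each other among the 5 genes. RefSeq promoter sequences on build GRCm38.p6 matched 7 of the 9 genes; Cspg5 and Has2 had none. Each line gives the 250 bases before the transcription start, 5′ to 3′ on the strand of the gene, with matches to a searched motif in capitals. Ncan lies at chr8:70120845-70121094 on the minus strand, its last bases, with the TATA box letters below, lying inside the annotated gene, Ptprz1 at chr6:22875252-22875501 on the plus strand, ending at the base before the annotated gene, and Hapln1 at chr13:89540386-89540635 on the plus strand, inside the annotated gene, whose first transcript starts earlier.
Ncan: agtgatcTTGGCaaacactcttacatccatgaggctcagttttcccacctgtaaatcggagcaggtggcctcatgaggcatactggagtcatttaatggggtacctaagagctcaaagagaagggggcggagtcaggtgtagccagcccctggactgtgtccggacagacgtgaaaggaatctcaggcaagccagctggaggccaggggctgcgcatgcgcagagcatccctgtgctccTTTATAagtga
Ptprz1: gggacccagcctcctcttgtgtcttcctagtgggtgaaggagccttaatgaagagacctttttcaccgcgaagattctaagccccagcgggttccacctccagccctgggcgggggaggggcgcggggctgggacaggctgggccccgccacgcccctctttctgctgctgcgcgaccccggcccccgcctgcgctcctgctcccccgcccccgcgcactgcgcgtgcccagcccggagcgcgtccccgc
Hapln1: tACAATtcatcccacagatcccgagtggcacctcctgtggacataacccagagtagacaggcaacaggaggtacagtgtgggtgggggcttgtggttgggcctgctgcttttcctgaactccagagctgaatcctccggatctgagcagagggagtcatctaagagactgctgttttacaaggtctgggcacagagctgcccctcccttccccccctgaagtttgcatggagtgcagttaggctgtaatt
The 6 motifs were searched on both strands: TTGGC (the short site of NFI factors), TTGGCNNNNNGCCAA (the full NFI site, which contains the short site), TGANTCA (AP-1), TTCNNNGAA (STAT), ACAAT (SOX) and TATAAA (the TATA box). Of 32851 promoters of this length, 41.51%, 0.04%, 6.75%, 7.02%, 27.66% and 12.37% held them in that order. The Ncan sequence held TTGGC from position −243 and the TATA box letters from −11 on the other strand, the Hapln1 sequence held ACAAT from −249, and the Ptprz1 sequence held none of the 6. No motif was common to the 3 sequences, which says only that these letters are not all in these windows.

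Single members were also set beside all other genes across libraries. The 3 genes most like each member were ranked by the lower of the ipsilateral (19 libraries) and contralateral (18 libraries) Pearson's r of log2(TPM + 1) among 10065 genes, as a description. They were picked as the highest of so many genes, so their r cannot be set against that between members. Slc12a4 was most like Bcan (0.93 and 0.89), followed by Aars and AI464131. Tns3 was most like Ncan (0.91 and 0.92), followed by Vezf1 and Nlgn3, and Sema6d most like Ptprz1 (0.93 and 0.9), followed by Cdh2 and Pcdh17. For Cspg5 they were Pip4p1 (0.8 and 0.89), Chst1 and Wnt7b. For Hapln1 they were the gap junction gene and astrocyte marker Gja1 (0.88 and 0.94), Fut8 and 1810013L24Rik.

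The genes that build, bind and cleave this matrix were read from lists. Of the 24 genes for chondroitin sulphate chain synthesis and sulphation, 17 were tested and 0 were called in each comparison with all libraries. Over these comparisons 0.0843% to 4.05% of all tested genes were called. Under an alternative up to 2 of the 17 were, as were Csgalnact1 and Xylt2 in ipsilateral PTE+ against sham mice without a9_11, where 9.95% of all tested genes were called. Chst12 was called in 7 of 15 alternatives of ipsilateral CCI-injured against sham mice and in 4 of 11 of PTE− against sham mice. Over those alternatives 1.32% to 4% and 1.37% to 3.98% of all tested genes were called. The most abundant were Papss1 (86 TPM), which makes the sulphate donor, and B3gat3 (79.4 TPM), which completes the linkage to the core protein. The 17 genes had a median log2 fold change of 0.3 in the ipsilateral PTE+ to PTE− comparison, beside 0.12 over all tested genes, and 0.0035 between ipsilateral CCI-injured and sham mice, beside −0.013. In the former comparison the oligodendrocyte markers had a median of 0.66, the neuron markers of 0.59 and the 3 meningeal and fibroblast markers above the filter in both groups of 0.57, with 0 called, and their part in the shift of the 17 genes was not tested. Of the 3 ligands of Ptprz1, all tested, 0 were called in any comparison with all libraries. Ptn (pleiotrophin) was called in contralateral PTE+ against sham mice with quantile normalization, without sham mouse a8_16 and without a9_10, where 2.32%, 2.88% and 1.74% of all tested genes were. Its mean was at 1449 TPM and that of Mdk (midkine) at 272 TPM.

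Cd44, a hyaluronan receptor, was the gene of the hyaluronan list called within a hemisphere with all libraries. Ipsilateral Cd44 ranged from 2.88 to 11 TPM in sham (median 3.82 TPM), from 5.84 to 14.7 TPM in PTE− (median 8.51 TPM) and from 5.69 to 14.6 TPM in PTE+ (median 11.3 TPM), with overlap. It was called higher in CCI-injured than sham mice (log2 fold change 0.83, SE 0.27, limma p = 0.00534), 1 of 4 genes tested of 11 listed, where 1.62% of 10434 genes were called, and its limma adjusted p was 1. Without a9_11 its log2 fold change was 1.09, the highest over the alternatives, and without a9_14 0.81, and it was called in all 15 alternatives of this comparison. The sham mean (5.28 TPM) exceeded the filter through the highest sham library (11 TPM) alone. Without that library Cd44 passes through the injured mean alone (9.62 TPM with all libraries), the group where it is high, so that call supports nothing. With all libraries it was called with no filter as well. Ugdh was not called with all libraries and was in 9 of the 15 alternatives, among them those without a9_11 (4% of all tested genes called) and without a9_14 (3.83%). Cd44 was also called in PTE− (0.78, SE 0.29; not without sham mouse a8_16 or a9_9) and PTE+ (0.96, SE 0.36; not without PTE+ mouse a9_18 or a9_19 or sham mouse a8_16) against the same sham mice, where 1.54% and 1.56% of all tested genes were called. Within injured mice Cd44 (0.8, SE 0.22, limma adjusted p = 0.404) and Ugdh (0.37, SE 0.12, limma adjusted p = 0.843), which makes the sugar precursor of hyaluronan, were higher in the ipsilateral than the contralateral cortex, 2 of 4 tested where 2.62% of 10706 genes were called, and both were called in all 14 alternatives. Over these the limma adjusted p ran from 0.0426 to 0.875 for Cd44 and from 0.0426 to 0.973 for Ugdh. For Ugdh the interaction was called as well (0.54, SE 0.22, limma adjusted p = 1; not without sham mouse a9_9 or a9_10), where 1.37% of all tested genes were. The hyaluronidases Hyal2 (54.3 TPM) and Hyal1 (43.1 TPM) were the most abundant of the list and were not called.

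Hapln2, the link protein of nodes of Ranvier in myelinated tracts, was called lower after injury, but it passed the filter in ipsilateral comparisons with sham mice through the sham mean alone (13.7 TPM, beside 2.99 TPM in CCI-injured mice), the group where it is high, so its count among the tested genes supports nothing. It was at 0.8 to 39.2 TPM in ipsilateral sham libraries (median 7.68 TPM), 0 to 6.3 TPM in PTE− (median 2.63 TPM) and 1.43 to 7.28 TPM in PTE+ (median 3.24 TPM). The log2 fold change was −1.43 between CCI-injured and sham mice (SE 0.52, limma adjusted p = 1) and −1.55 between PTE− and sham mice (SE 0.58, limma adjusted p = 0.999), and −0.83 between hemispheres of injured mice (SE 0.38, limma adjusted p = 0.969). The shares called among all tested genes were 1.62%, 1.54% and 2.62%. With no filter Hapln2 was called in the first pair as well. Of the 2 groups compared between hemispheres, only the contralateral one, where it is high, was above the filter (6.6 TPM, beside 2.99 TPM), and the hemispheres were not compared without a filter. Without sham mouse a8_16 Hapln2 was not called in the first pair, and without a9_14 (−0.69), PTE+ mouse a8_17 or PTE+ mouse a9_17 not between hemispheres. Without a9_11 the first pair were −2.03 and −2.14, and without a9_14 −1.3 and −1.36. Between PTE+ and sham mice it was not called with all libraries and was without a9_11, where 9.95% of all tested genes were. Of the 7 other core proteins, link proteins and tenascins, 2 were above the filter in both groups of the ipsilateral comparisons with sham mice and none of these was called. The most abundant were Hapln3 (29.7 TPM) and Cspg4 (8.53 TPM). The oligodendrocyte markers were read beside it. Opalin passed the filter through the sham mean alone. Of the 7 markers above the filter in both groups, 2 (Mag and Mog) were called lower in ipsilateral CCI-injured than sham mice, where 1.62% of 10434 genes were called, with a median log2 fold change of −0.85 over the 7, and Opalin was called as well. With a pseudocount of 0.1 Mag was not called, and Opalin was not with that pseudocount or centring, nor without PTE+ mouse a9_17 or a9_18 or sham mouse a8_15, a8_16 or a9_9. Opalin included, 6 of 8 were called without a9_11 (4% of all tested genes), the same 3 genes without a9_14 (3.83%), only Mog without sham mouse a9_9 (1.69%) and none without sham mouse a8_16 (1.32%). In PTE− against sham mice the same 3 were called (Opalin not with no filter, a pseudocount of 0.1 or centring, nor without a9_14 or sham mouse a8_15, a8_16 or a9_9, and Mag not with that pseudocount or without a8_16). In PTE+ against sham mice 0 of 8 were called, or 4 without a9_11, where 9.95% of 10434 genes were. Their ipsilateral sums were 523, 1778, 3089.7, 4006 and 4476 TPM in sham, 1191, 1240, 1638 and 2337 TPM in PTE+ and 774 to 2269.9 TPM (median 1347 TPM) in PTE−. No marker was at 0 except 5 of 8 in a9_14, and the part of oligodendrocyte RNA in the Hapln2 values was not tested.

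Of the enzymes that cut lecticans and their inhibitors (12 listed), 5 were above the filter in both groups in ipsilateral PTE+ against sham mice, and 1 of them, Mmp14, was called, where 1.56% of 10447 genes were. Mmp2 was called as well, but it passed the filter through the PTE+ mean alone (5.995 TPM, beside 1.77 TPM in sham), the group where it is high. Its count among the tested genes thus supports nothing. Without a9_11 4 were called with Mmp2 counted, Timp2 and Timp3 being added, where 9.95% of 10434 genes were. None was without PTE+ mouse a9_17 (1.37% of all tested genes) or a9_19 (0.933%) or sham mouse a8_15 (1.31%). Mmp2 was at 0.38 to 2.96 TPM in sham and 2 to 12.3 TPM in PTE+ (log2 fold change 1.23, SE 0.47, limma adjusted p = 1), was called with no filter as well, and could not be tested without a9_19. Mmp14, a membrane-bound protease, was at 49.2 to 147 TPM in sham and 88.5 to 155 TPM in PTE+ (0.64, SE 0.29, limma adjusted p = 1), and was called in 7 of 14 alternatives (not with no filter, nor without PTE+ mouse a9_17, a9_18 or a9_19 or sham mouse a8_15, a8_16 or a9_10). In the same comparison the 2 meningeal and fibroblast markers above the filter in both groups had a median of 0.42 beside 0.085 over all tested genes, and none was called. The sums over the whole list were 21.9, 61.5, 74.6, 78.9 and 136 TPM in sham and 57.5, 69.3, 92.6 and 143 TPM in PTE+ mice. The 5 oligodendrocyte precursor markers above the filter in both groups had a median of 0.012, and 1 was called, C1ql1 (1.28, SE 0.46; not without PTE+ mouse a9_19). The sums over that list were 218, 225, 273, 359 and 367 TPM in sham and 217, 254, 351 and 429 TPM in PTE+ mice. None of either list was at 0 in these libraries, and their part in the protease values was not tested. Timp1, an inhibitor, was called for the difference of the injury contrast between hemispheres, but it passed the filter through contralateral sham libraries alone (mean 10.4 TPM, 0.48 to 37.4 TPM), could not be tested without sham mouse a8_16, and is not counted here. The inhibitors Timp3 (225 TPM) and Timp4 (180.5 TPM) were the most abundant of the list and were not called with all libraries. The main lectican-cleaving enzymes Adamts4 and Adamts5 averaged 1.29 and 0.19 TPM and did not pass the filter in any comparison.

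Of the 4 receptors of chondroitin sulphate proteoglycans, Rtn4r, the Nogo receptor, was called in 1 comparison with all libraries, where 2.79% of 10423 genes were called. It passed the filter there through the PTE+ mean alone (6.08 TPM, beside 3.89 TPM in PTE−), the group where it is high, so its count among the tested genes supports nothing. Of the 3 receptors above the filter in both groups 0 were called. Contralateral Rtn4r was at 4.83 to 7.48 TPM in PTE+ and 2.75 to 7.15 TPM in PTE− (log2 fold change 0.56, SE 0.22, limma adjusted p = 0.999; not called without PTE+ mouse a8_10 or a9_18 or with quantile normalization, and called with no filter), with overlap, while contralateral sham libraries ranged from 1.27 to 6.67 TPM. The neuron markers had a median log2 fold change of 0.61 in the same comparison with 0 of 7 tested called. Their sums were 110.3, 255, 288 and 530.1 TPM in PTE+ and 35.4 to 513 TPM (median 196 TPM) in PTE−, with none at 0. The endothelial markers, led by Cldn5, had a median of 0.77 with 2 of 5, Tek and Pecam1, called, and 0 without PTE+ mouse a9_17, where 1.96% of all tested genes were, or 5 without a9_18, where 4.66% of 10488 were, 81.6% of them higher. Tek was also not called without PTE+ mouse a8_10. Their sums were 251, 420.3, 569.6 and 872 TPM in PTE+ and 164 to 532 TPM (median 337 TPM) in PTE−. The part of either in the Rtn4r values was not tested. Ptprs (58.8 TPM) and Ptprf (26.2 TPM), the receptor phosphatases for chondroitin sulphate chains, were the most abundant and were not called in any comparison with all libraries. Ptprs was called in ipsilateral PTE+ against sham mice without a9_11, where 9.95% of all tested genes were, and under other alternatives 1 or both were.

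Markers of the cell types themselves were read in the same way. Gfap, the intermediate filament of reactive astrocytes, ranged from 188 to 373 TPM in ipsilateral sham, from 179 to 1065 TPM in PTE− and from 422 to 970.3 TPM in PTE+ libraries. It was called higher in ipsilateral CCI-injured than sham mice (1.18, SE 0.29, limma adjusted p = 0.909), as was the water channel Aqp4 (0.39, SE 0.17), 2 of 10 markers where 1.62% of 10434 genes were called. Gfap was called in all 15 alternatives (1.25 without a9_11, 1.32 without a9_14), with limma adjusted p from 0.0212 to 1, and Aqp4 was not without sham mouse a8_15, a8_16 or a9_9. Between hemispheres of injured mice Gfap was called as well (1.2, SE 0.23, limma adjusted p = 0.0205, and 0.000791 to 0.0603 over 14 alternatives), as was the interaction (1.41, SE 0.44, limma adjusted p = 1). In ipsilateral CCI-injured against sham mice, 0 of 6 tested oligodendrocyte precursor, 0 of 7 neuron, 0 of 6 microglia, 0 of 5 endothelial and 0 of 4 meningeal and fibroblast markers were called. Without a9_14 C1ql1 and Pvalb were (3.83% of all tested genes), and without sham mouse a9_10 P2ry12 and Tmem119 (1.91%). With all libraries Pvalb was above the filter in 1 of these 2 groups alone, so its call supports nothing. Gfap and Aqp4, again 2 of 10, were also called in ipsilateral PTE+ against sham mice (1.29, SE 0.27, and 0.56, SE 0.23), where 1.56% of all tested genes were, and Gfap alone in PTE− against sham mice (1.14, SE 0.31), where 1.54% were. Gfap was called in all alternatives of both, while Aqp4 was not with quantile normalization, nor without PTE+ mouse a9_17, a9_18 or a9_19 or sham mouse a8_15, a8_16 or a9_9. Between hemispheres of injured mice, where 2.62% of 10706 genes were called, 1 of 6 tested oligodendrocyte precursor markers, Olig2 (−0.35, SE 0.17), 2 of 5 endothelial markers, Pecam1 (−0.48, SE 0.22) and Flt1 (−0.59, SE 0.26), and 4 of 8 oligodendrocyte markers (Mal, Mobp, Mbp and Mog) were lower on the ipsilateral side. Olig2 was not called without PTE+ mouse a8_10, a8_17 or a9_18, Pecam1 not without PTE+ mouse a8_17, a9_17 or a9_19, Flt1 not without a9_19 and Mbp not without a9_14 or a9_17, while Mal, Mobp and Mog were called in all 14 alternatives. The limma adjusted p of Olig2 was 0.969 with all libraries and ran from 0.0113 to 0.98 over the alternatives. In contralateral PTE+ against sham mice Cldn5 was called higher (0.77, SE 0.35), where 1.97% of 10640 genes were called, and was not called in 9 of 14 alternatives, which were those with no filter, quantile normalization and the prefix as covariate and those without PTE+ mouse a8_10, a8_17 or a9_17 or sham mouse a8_15, a9_9 or a9_11 (0.64).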

How the data were processed

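RNA of ACSA-2-isolated astrocytes was sequenced by the authors, who trimmed reads with Trim Galore 0.6.4, quantified them with Bowtie2 2.4.1 and RSEM 1.2.28, and deposited TPM values of 21975 genes for each hemisphere; the authors tested with DESeq2 1.36.0. Mouse a8_17 (PTE+) has a contralateral library alone, and a9_19 (PTE+) and a9_14 (PTE−) an ipsilateral one alone. TPM holds no depth, so no counting error could be given. Of the gene identifiers, 21856 had a symbol and 119 did not. Groups came from the sample labels. With limma 3.58.1 in R 4.3.3, log2(TPM + 1) was compared with trended variance for genes whose mean exceeded 5 TPM in 1 or more groups, and p-values were adjusted by the Benjamini-Hochberg method over all genes tested. The call rule, an unadjusted p under 0.05 and a fold of at least 1.2, follows the study's thresholds. Each of the 9 genes was also compared by a two-sided exact permutation test within a hemisphere, and correlations by 100000 resamples. The steps were tested on simulated data. The named genes were all 9, those of 6 pathway lists called within a hemisphere and the 2 most abundant of each list, and the 3 genes most like each of 5 members; Ugdh, Timp1, Adamts4, Adamts5, single marker genes and genes called under an alternative alone were named after their values were seen. The 13 lists besides the 9 genes hold 6 pathway lists and 7 cell type marker lists. The members and lists were chosen with earlier results of these data known. The hemispheres of 17 mice are paired by mouse in the labels: deviations from group means correlated with a median r of 0.412 in the same mouse (0.042 to 0.686, above 0.1 in 16 of 17) and −0.106 between mice over 10235 genes. With the mouse as a block 967 genes were called between sham hemispheres in place of 141. That fit tested 10695 genes in place of 10706, so more than the block changed. Leaving out a9_14 alone, without the block, gave 327. Alternatives were a pseudocount of 0.1, no filter, quantile normalization, median centring, the mouse-name prefix as covariate, the mouse as block, and leaving out each PTE+ mouse, each sham mouse and PTE− mouse a9_14; the other PTE− mice were not left out. Promoters came from RefSeq on GRCm38.p6. Tables and permutations used scipy 1.17.1, pandas 2.3.3 and numpy 2.4.6 in Python 3.11.15, and plots matplotlib 3.10.9.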

Additional observations from a re-analysis of the deposited data

Results flagged for a closer look

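In 8 of 54 groups of libraries (9 genes in 6 groups) the highest library lay far from the next, measured by its gap over the range of the group. Chance would mark about 1 in 20 groups if values were normal and groups independent. Here the genes share libraries and some groups are mostly at 0, as was Has2 in 3 of 4 contralateral PTE+ libraries. The count of 8 can thus not be set against that rate. Of the 8, 2 concern genes above 1 TPM, both in the ipsilateral sham library of mouse a9_11: Ptprz1 at 221.13 TPM, with the next sham library at 120.73 TPM, and Tnc at 7.72 TPM, with the next at 2.83 TPM. The other 6 concern genes near 0, where the gap is small in TPM. For Acan these were 0.17 TPM in contralateral PTE− mouse a9_15 (next 0.04 TPM), 0.12 TPM in contralateral sham mouse a9_11 (next 0.03 TPM) and 0.2 TPM in ipsilateral sham mouse a9_9 (next 0.05 TPM). For Has2 they were 0.09 TPM in contralateral PTE+ mouse a9_17 (next 0 TPM), 0.25 TPM in contralateral sham mouse a9_11 (next 0.02 TPM) and 0.21 TPM in ipsilateral PTE− mouse a9_12 (next 0.09 TPM).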

How the results depend on the processing

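The 60 differences of the 5 tested genes were recomputed under 740 combinations with an alternative: 661 kept their direction and stayed uncalled, 74 changed sign without being called, and 5 were called under an alternative alone. The latter were 4 genes in ipsilateral PTE+ against sham mice without sham mouse a9_11 and Hapln1 between sham hemispheres with the mouse as a block. The number of members called thus ran from 0 to 4 over left-out mice in ipsilateral PTE+ against sham, and was 1 with the block between sham hemispheres; the block changed no other member call. The causes of the sign changes were not tested. For the 37 called differences of genes of the other lists, 490 values under alternatives kept their direction, 411 of them called and 79 not, 2 could not be tested, and 12 of the 37 were called in every alternative run. The groups are small (4 PTE+ libraries in each hemisphere), and TPM gives no depth, so the precision of low values is unknown. Leaving out mice in the hemisphere comparisons and in the permutation tests, values within prefixes, the alternatives for called genes of the other lists, counts over list genes above the filter in both groups (from the same fits) and shares of all gene pairs were chosen after seeing the data.

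Without a filter on TPM, the counts of called genes rose in the ipsilateral cortex to 379 (CCI-injured against sham), 171 (PTE+ against PTE−), 361 (PTE− against sham) and 384 (PTE+ against sham), and in the contralateral cortex to 682, 458, 677 and 393 in the same order, with more genes tested. With the mouse as a block they were 490 between hemispheres of injured mice, 967 of sham mice, 695 for the difference of the injury contrast and 330 for that of the PTE contrast. The last was 27 with quantile normalization. The block fits tested 10695 genes (10683 for the PTE contrast) in place of 10706 (10681), so more than the block changed. Leaving out a9_14 alone, without the block, gave 336, 327, 288 and 49 in the same order. Scaling moved the split of calls: in contralateral CCI-injured against sham mice 13.3% of 428 called genes were higher, against 62.2% of 410 after centring and 56.3% of 355 after quantile normalization. In contralateral PTE− against sham mice the share higher was 12.8%, against 73.4% after centring and 62.1% after quantile normalization, in PTE+ against sham mice 25.2%, against 36.1% and 36%, and in PTE+ against PTE− mice 69.8%, against 41% and 36%. Ipsilaterally it was 76.3%, against 65% and 63.2%, for CCI-injured against sham, 76.1%, against 51% and 54.2%, for PTE+ against sham, 56.7%, against 28% and 40.7%, for PTE+ against PTE−, and 76.4%, against 69% and 65.1%, for PTE− against sham. With quantile normalization it went from 7.8% to 41.2% between sham hemispheres, from 95.2% to 55.8% for the difference of the injury contrast and from 55.6% to 66.7% for that of the PTE contrast. The last was also 33.6% of 330 with the mouse as a block, 90.9% of 11 without PTE+ mouse a9_17 and 15% of 20 without a9_18. The median over all tested genes in contralateral PTE− against sham mice went from −0.09 to 0.03 with centring.

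Signs changed under scaling for small differences. With quantile normalization the log2 differences became −0.030 (Bcan) and −0.026 (Ptprz1) in ipsilateral PTE− against sham, −0.036 (Cspg5) in contralateral CCI-injured against sham and 0.020 (Ncan) in contralateral PTE+ against sham. With centring they became −4e-04 (Bcan) and −0.0022 (Ptprz1) in ipsilateral PTE− against sham, 0.070 (Bcan) in contralateral CCI-injured against sham, 0.044 (Bcan), 0.12 (Cspg5) and 0.01 (Hapln1) in contralateral PTE− against sham, and 0.048 (Ncan) in contralateral PTE+ against sham. With the prefix as a covariate they became 0.0038 (Cspg5, contralateral PTE− against sham) and 0.074 (Ncan, contralateral PTE+ against sham). With the block they became 0.089 (Ptprz1, hemispheres of injured mice) and 0.041 (Bcan, difference of the PTE contrast). More than the block changed in those fits, since the genes tested differed as well.

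Leaving out each PTE+ mouse, each sham mouse and PTE− mouse a9_14 in turn moved the counts of called genes as follows; the other PTE− mice were not left out. On the ipsilateral side they ran from 138 (without a8_16) to 415 (without a9_11) for CCI-injured against sham, from 23 (without a9_17) to 197 (without a9_14) for PTE+ against PTE−, from 144 (without a8_16) to 416 (without a9_14) for PTE− against sham and from 95 (without a9_18) to 1038 (without a9_11) for PTE+ against sham. On the contralateral side they ran from 231 (without a9_11) to 883 (without a9_9), from 201 (without a9_17) to 489 (without a9_18), from 224 (without a9_11) to 861 (without a8_16) and from 104 (without a8_10) to 601 (without a9_9) in the same order. Between sham hemispheres they ran from 60 (without a9_10) to 327 (without a9_14), for the difference of the injury contrast from 62 (without a9_10) to 288 (without a9_14), and for that of the PTE contrast from 8 (without a9_19) to 49 (without a9_14).

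The members' log2 differences ranged as follows over the same left-out mice. For ipsilateral CCI-injured against sham they ran from −0.082 to 0.22 (Bcan), −0.085 to 0.36 (Ncan), −0.030 to 0.31 (Ptprz1) and −0.058 to 0.27 (Hapln1), each highest without a9_11. For ipsilateral PTE− against sham they ran from −0.11 to 0.19 (Bcan), −0.19 to 0.25 (Ncan), −0.0078 to 0.19 (Cspg5), −0.11 to 0.23 (Ptprz1) and −0.13 to 0.20 (Hapln1), also highest without a9_11, and for ipsilateral PTE+ against sham from −0.0011 to 0.30 (Bcan). For contralateral CCI-injured against sham they ran from −0.14 to 0.023 (Bcan), −0.38 to 0.12 (Ncan) and −0.046 to 0.075 (Cspg5). For contralateral PTE+ against PTE− they ran from −0.0033 to 0.33 (Bcan), −0.17 to 0.32 (Ncan), −0.0095 to 0.13 (Cspg5) and −0.33 to 0.085 (Ptprz1). For contralateral PTE− against sham they ran from −0.42 to 0.074 (Ncan), −0.069 to 0.052 (Cspg5), −0.31 to 0.0028 (Ptprz1) and −0.20 to 0.016 (Hapln1), and for contralateral PTE+ against sham from −0.078 to 0.26 (Bcan), −0.31 to 0.21 (Ncan) and −0.014 to 0.13 (Cspg5). Between hemispheres they ran from −0.083 to 0.083 (Ptprz1, injured mice), and in sham mice from −0.19 to 0.080 (Bcan) and −0.066 to 0.095 (Cspg5). The difference of the injury contrast ran from −0.037 to 0.24 (Bcan) and −0.013 to 0.15 (Cspg5), and that of the PTE contrast from −0.16 to 0.12 (Bcan) and −0.045 to 0.092 (Cspg5).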
